A study of Mus musculus with 28 samples.

Results

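Expression and chromatin at 10 mouse genes of the integrated stress response and the unfolded protein response were followed through the neural differentiation of P19 cells. The genes were Trib3, Ddit3, Atf4, Atf5, Asns, Chac1, Sesn2, Psat1, Xbp1 and Hspa5. They are 10 of 55385 gene identifiers in the deposited RNA table, and all 10 were among the 17789 genes with enough counts to be tested. They were chosen by pathway and selected on the measured fall of Trib3 between day 0 and day 4, so values of that comparison are given as a description without a test. The comparisons that share libraries with it (day 2 with DMSO against day 0, and day 8 against day 4) are tested for the other genes only. Ddit3 was matched by 2 identifiers, of which 1 had 0 counts in every library, so the other was used.

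P19 is an established line of mouse embryonal carcinoma cells, which are pluripotent. RNA-seq covered 5 groups of 2 libraries each, described by the submitters as biological replicates. Day 0 cells were untreated. The day 2 groups had received 1 µM retinoic acid for 2 days and, after the first 24 hours of it, 1 µL of either DMSO, the solvent, or a 10 mM solution of MS-275, an inhibitor of class I histone deacetylases (the final concentration was not stated). The cells of day 4, called neural stem and progenitor cells in the labels, had received 1 µM retinoic acid for 4 days in serum medium, and the cells of day 8, called neurons, were then dissociated and grown for another 4 days in neuronal medium with B27. The day 2 controls therefore carried both retinoic acid and DMSO, while day 0, day 4 and day 8 had no DMSO. Peak lists came from native ChIP-seq for 3 marks of histone H3, namely acetylation (H3K9ac) and crotonylation (H3K9cr) of lysine 9 and lactylation of lysine 18 (H3K18la), with 1 library per mark in each day 2 group and 2 at day 4, and from 2 ATAC-seq libraries, which map open chromatin, at day 4.

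The integrated stress response starts when kinases that sense amino acid shortage, unfolded proteins in the endoplasmic reticulum (ER), double-stranded RNA or lack of haem phosphorylate the translation factor eIF2α. General translation then falls, while the mRNA of the transcription factor ATF4 is translated better, and ATF4 raises genes for amino acid supply, redox balance and feedback. The unfolded protein response adds the sensors IRE1, which splices the mRNA of XBP1, and ATF6, and both raise chaperones of the ER. Gene counts do not show the splicing of Xbp1 or the translation of Atf4.

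Each RNA library held 18115926 to 19586374 estimated counts. Levels are CPM, counts scaled to a common library total with edgeR's TMM factors, and they are compared between libraries but not between genes, since CPM is not corrected for gene length. A gene was called where the Benjamini-Hochberg adjusted p of edgeR's quasi-likelihood test, over all 17789 genes, was under 0.05. Markers checked the labels. The summed CPM of 6 pluripotency genes was 2217 to 2243 at day 0, 49.5 to 51.8 in day 2 DMSO libraries and 123 to 129 under MS-275, then 3.15 to 4.55 at day 4 and 51.3 to 60.4 at day 8. Zfp42 was at 0 in all libraries after day 0, and Dppa4 at day 4. Nanog changed less than the sum, and its mean under MS-275 (12.6 CPM) was above that at day 0 (9.20 CPM). Its mean was 6.52 CPM with DMSO, 0.741 at day 4 and 7.79 at day 8. The sum of 6 neural progenitor genes was 213 to 222 at day 0, 562 to 565 with DMSO and 676 to 731 under MS-275. It was 790 to 860 at day 4 and 1068 to 1118 at day 8, so it was highest in the cells labelled neurons. The sum of 6 neuron genes, all detected in each group, was 136 to 139, 257 to 279, 278 to 298, 2009 to 2100 and 2653 to 2804 in the same order of groups. The sum of 5 fibroblast and mesenchyme genes was 34.0 to 35.7 with DMSO and 431 to 465 with MS-275, mostly from Col1a1 (mean of 3.33 and 357 CPM), while Dcn went from 4.64 to 2.06. It was 133 to 141 at day 0 and 962 to 995 at day 8, with Col3a1 at 2.30 and 574 CPM and Acta2 at 108 and 7.38. The 4 glial genes summed to at most 77.2 CPM in any library and the 4 endoderm genes to at most 2.74. The part of these other cells in the results below was not tested, and in bulk RNA a lower level per cell cannot be told apart from fewer cells that express a gene.

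**Figure D1:**
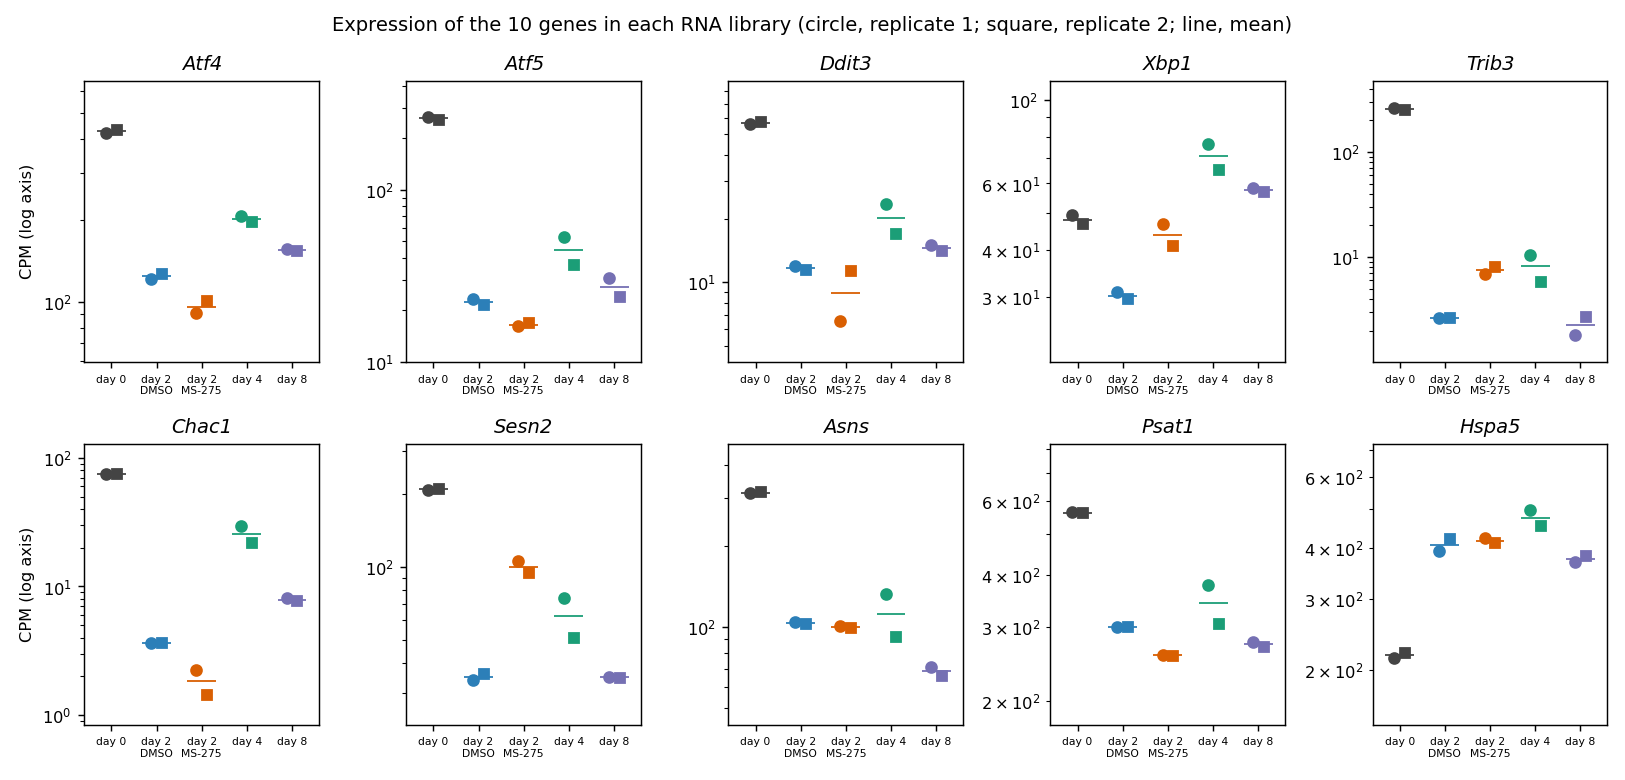
CPM of each of the 10 genes (y axis, log scale, a separate range per gene) in the 10 RNA libraries by group (x axis), with circles for replicate 1, squares for replicate 2 and a line at the mean. Both day 0 libraries lie above all other libraries for 8 genes, and the exceptions are Xbp1 and Hspa5. The 8 include Trib3, on whose fall from day 0 the set was selected, and the share of all genes with this order was not computed.

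Promoter sequences are shown for the gene used in choosing the set and for the 3 genes with a match to a stress element within the 250 bases searched. The 250 bases before the annotated start were taken from RefSeq (GRCm38.p6), in which all 10 genes matched and gave 12 starts. 2 elements were searched on both strands: the core of the C/EBP-ATF response element, TGATGNAA, which ATF4 and its partners can bind, and the ER stress response element, which is CCAAT and CCACG with 9 bases between and which ATF6 and XBP1 can use. Capitals mark a match, and the sequences read 5′ to 3′ on the strand of the gene.
Trib3 (chr2:152344061-152344310, minus strand): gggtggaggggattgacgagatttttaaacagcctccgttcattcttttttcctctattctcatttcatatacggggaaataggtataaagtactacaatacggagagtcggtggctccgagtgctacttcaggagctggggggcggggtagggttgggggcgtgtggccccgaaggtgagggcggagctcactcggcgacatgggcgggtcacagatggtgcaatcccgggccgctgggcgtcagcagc
Asns (chr6:7693210-7693459, minus strand): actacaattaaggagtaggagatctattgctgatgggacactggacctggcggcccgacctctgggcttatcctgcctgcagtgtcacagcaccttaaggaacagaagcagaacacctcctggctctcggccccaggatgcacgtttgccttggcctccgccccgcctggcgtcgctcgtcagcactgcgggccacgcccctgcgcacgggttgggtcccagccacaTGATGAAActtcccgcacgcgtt
Chac1 (chr2:119350992-119351241, plus strand): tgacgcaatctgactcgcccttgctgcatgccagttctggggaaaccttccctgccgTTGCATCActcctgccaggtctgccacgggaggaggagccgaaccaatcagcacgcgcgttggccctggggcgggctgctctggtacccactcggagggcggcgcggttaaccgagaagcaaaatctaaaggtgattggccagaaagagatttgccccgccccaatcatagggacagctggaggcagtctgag
Hspa5 (chr2:34771840-34772089, plus strand): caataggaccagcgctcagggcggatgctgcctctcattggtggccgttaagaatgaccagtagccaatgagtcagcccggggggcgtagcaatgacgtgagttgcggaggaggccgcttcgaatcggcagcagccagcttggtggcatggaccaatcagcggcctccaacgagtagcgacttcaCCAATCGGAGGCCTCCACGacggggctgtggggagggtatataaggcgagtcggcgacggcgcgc
The ATF4-type core lay 23 to 16 bases before the start of Asns, on the strand of the gene, and 193 to 186 bases before the start of Chac1, on the opposite strand, where it reads TGATGCAA. It was found before 3.45% of 32851 mouse starts in windows of the same length. In windows of 300 bases, which add the first 50 bases after the start, 3 of the 10 genes held this core, beside 3.97% of all starts. The ER stress element lay 65 to 47 bases before the start of Hspa5 and occurred before 0.113% of all starts. A match is a description of the letters, and the absence of one from the other windows, that of Trib3 included, says only that these letters are not there.

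Trib3 encodes a pseudokinase that is induced by ATF4 and CHOP and dampens their activity. Its gene lies on chromosome 2 from 152337425 to 152344060 (GRCm38.p6, minus strand). It stood at 263 and 253 CPM in the day 0 libraries, at 2.62 and 2.62 in the day 2 DMSO libraries and at 6.88 and 8.11 under MS-275. The day 4 libraries held 10.5 and 5.78 CPM, and those of day 8 held 1.81 and 2.70. Day 0 stood far above every other group. The day 4 libraries overlapped with those of MS-275, and the day 8 libraries with those of DMSO, so neither neighbouring pair in the order of levels was separated. The level was 98.2-fold lower with DMSO at day 2 than at day 0, and 31.5-fold lower at day 4 than at day 0. The fall was thus already present by day 2, where 134 of the 17789 tested genes fell more. From day 2 with DMSO to day 4, which also differ in DMSO, the level was 3.12-fold higher, and at day 8 it was 3.63-fold lower than at day 4.

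The day 4 libraries differed from each other at these genes. All 10 genes were higher in replicate 1 than in replicate 2 of day 4, by ratios of 1.05 (Atf4) to 1.82 (Trib3) with a median of 1.37. Over all 11847 genes with at least 5 CPM the median ratio of these libraries was 0.998, with the 5th and 95th percentiles at 0.840 and 1.20. Of the 10 genes, 7 lay above that 95th percentile. The same held for 7 of 11 amino acid transporters (median 1.33) and 7 of 17 genes of amino acid synthesis (median 1.13), but for 0 of 21 ER chaperones (median 1.04). In the other groups the median ratio of the 10 genes lay between 0.996 and 1.02. Results that rest on day 4 are given also without replicate 1 where that ended a call or moved a count or fold by over 1.5 times, and for some others.

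**Figure D2:**
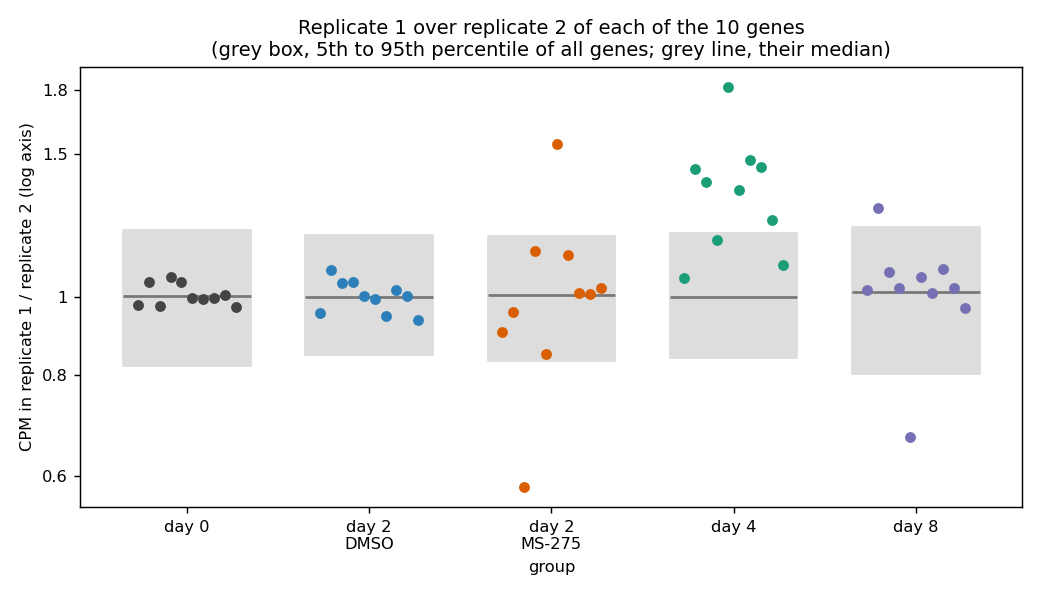
Ratio of CPM in replicate 1 to replicate 2 (y axis, log scale) for each of the 10 genes (points, in the order Atf4, Atf5, Ddit3, Xbp1, Trib3, Chac1, Sesn2, Asns, Psat1, Hspa5 from left to right) in each group (x axis), with a grey box from the 5th to the 95th percentile of genes with at least 5 CPM and a line at their median. All 10 points lie above 1 at day 4, from 1.05 to 1.82.

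The comparison of day 2 with DMSO against day 0 is the earliest of the series. Day 0 cells had neither retinoic acid nor DMSO, so time, retinoic acid and DMSO cannot be told apart in it. Of the 9 genes other than Trib3, 8 were called lower and Hspa5 was called higher. Over all genes tested, 32.2% were called lower and 32.4% higher. The median log2 fold change of these 9 genes was −1.79, against 0.01 over all genes.

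The transcription factors of both pathways fell together. Atf4, the central factor of the integrated stress response (chromosome 15, 80255184 to 80257545), was at 422 and 433 CPM at day 0 and at 121 and 127 with DMSO, and fell 3.45-fold (log2 −1.79, SE 0.0574, edgeR adjusted p = 8.43e-14). Atf5, a related factor that is controlled in the same way at the level of translation, was at 266 and 255 CPM at day 0 and at 23.1 and 21.4 with DMSO, an 11.7-fold fall (log2 −3.55, SE 0.133, adjusted p = 5.93e-13). Ddit3, which encodes CHOP, the factor tied to cell death under prolonged stress, was at 55.8 and 57.4 CPM and then at 11.9 and 11.4, a 4.85-fold fall (log2 −2.28, SE 0.165, adjusted p = 3.06e-09). In none of these genes did the groups overlap, but the share of all genes without overlap was not computed for this comparison. Xbp1, the factor of the IRE1 branch, was at 49.4 and 46.7 CPM and then at 30.8 and 29.5, a smaller fall of 1.59-fold (log2 −0.67, SE 0.0917, adjusted p = 6.92e-06). RefSeq places Mbd6 and Mars1 over part of Ddit3, and Nup62 and Il4i1b over part of Atf5. The sources used here do not say whether counting used strand, so reads of these overlapping genes cannot be told apart.

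Among the effectors, Chac1, a glutathione-degrading enzyme (chromosome 2, 119351242 to 119354326), went from 74.9 and 75.3 CPM to 3.61 and 3.64. This was a 20.7-fold fall (log2 −4.37, SE 0.150, edgeR adjusted p = 2.01e-13). Sesn2, which encodes a leucine sensor that restrains mTORC1 (chromosome 4, 132492804 to 132510456), went from 208 and 210.0 CPM to 34.1 and 36.1, a 5.96-fold fall (log2 −2.57, SE 0.122, adjusted p = 1.41e-11). Asns, the asparagine synthetase, went from 314 and 316 CPM to 104 and 102 (3.05-fold lower, adjusted p = 1.13e-09). Psat1, an enzyme of serine synthesis, went from 565 and 563 to 300.5 and 299.9 (1.88-fold lower, adjusted p = 8.02e-09). Asns and Psat1 thus kept more of their level than Chac1 or Sesn2, which was not so for every enzyme of amino acid supply (see Cth and Aldh1l2 below). Hspa5, the chief chaperone of the ER (chromosome 2, 34772090 to 34776529), went the other way, from 214 and 221 CPM to 395 and 422 (1.88-fold higher, log2 0.91, SE 0.0542, adjusted p = 2.74e-10). Rabepk overlaps Hspa5 in RefSeq.

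**Figure D3:**
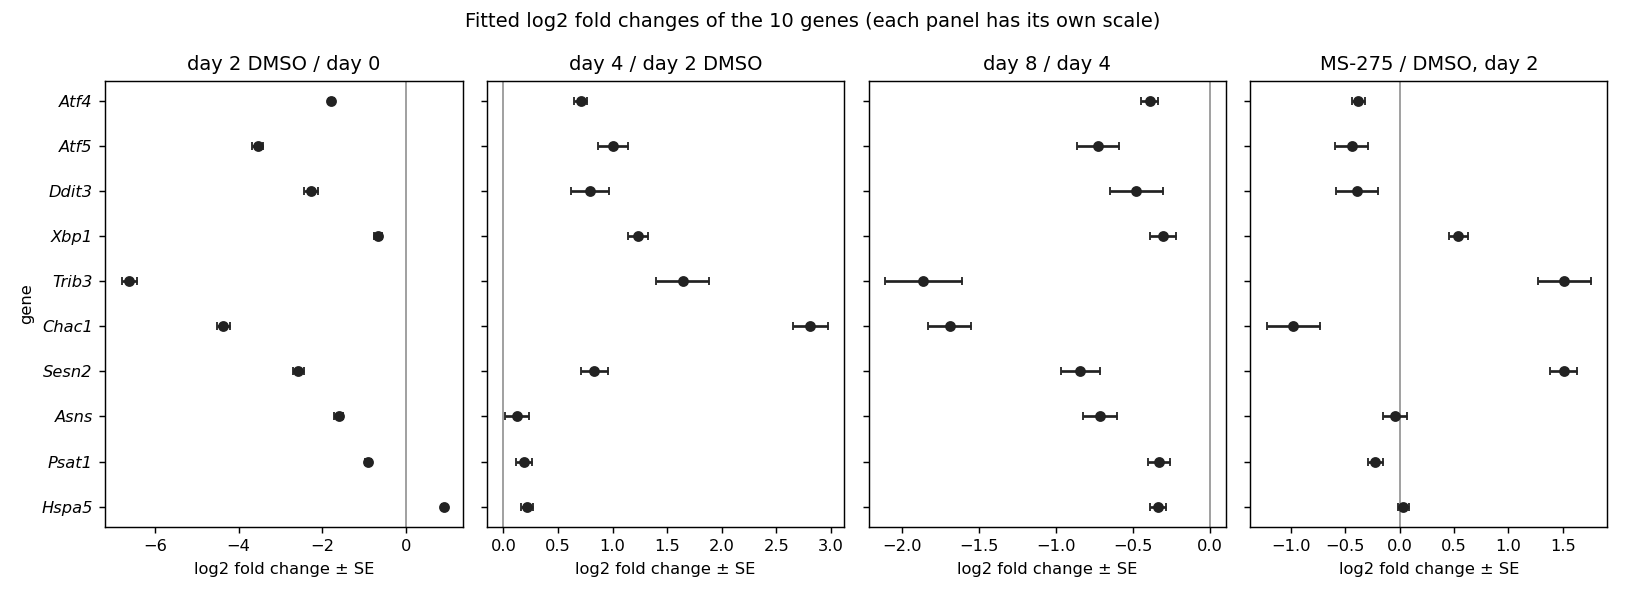
Fitted log2 fold changes (x axis, a separate scale per panel) with their standard errors for the 10 genes (y axis) in 4 comparisons, of which day 4 against day 2 with DMSO is a description without a test. In day 2 with DMSO against day 0, 9 genes lie below 0, and in day 8 against day 4 all 10 do, while MS-275 against DMSO has points on both sides.

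The other genes of these pathways were taken from 11 lists without the 10 members, of which 175 of 179 listed genes were tested. At day 2 with DMSO, 99 of the 175 were called lower and 52 higher than at day 0. Amino acid transport moved most uniformly: 11 of 12 genes were called lower and 0 higher (median log2 −1.43). The cationic amino acid transporter Slc7a3 went from 211 ± 9.11 to 14.4 ± 0.956 CPM (SD, n = 2), and the neutral amino acid transporter Slc1a4 from 388.5 ± 1.90 to 58.9 ± 0.610. Of 17 genes of amino acid synthesis and one-carbon metabolism, 13 were called lower and 2 higher (median −1.32). Cth, the enzyme that makes cysteine from cystathionine, fell 9.75-fold and the mitochondrial folate enzyme Aldh1l2 fell 9.49-fold, while the glutamine synthetase Glul rose 1.49-fold. Of 20 aminoacyl-tRNA synthetases, which charge tRNAs with amino acids, 14 were called lower and 5 higher (median −0.92). Aars went from 1816 ± 18.2 to 363 ± 5.18 CPM and Sars from 777 ± 1.36 to 218.5 ± 3.55, whereas Rars rose 1.71-fold.

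The sensors and phosphatases changed less. Of 23 genes, 14 were called lower and 4 higher, with a median log2 of −0.29. Ppp1r15a, the feedback subunit that directs a phosphatase to eIF2α, fell from 77.0 ± 3.21 to 14.3 ± 1.06 CPM, Atf6 fell 1.93-fold, and Eif2ak4, the kinase that senses uncharged tRNA, rose 1.53-fold. Among 14 tested bZIP partners and feedback genes, 11 were called lower and 2 higher (median −1.64). Nupr1 went from 8.72 ± 0.440 to 0.0808 ± 0.0338 CPM and Cebpb from 12.9 ± 1.09 to 0.815 ± 0.107, while the pseudokinase Trib2, a relative of Trib3, rose from 4.99 to 27.6 CPM. Of 17 tested outputs of the ATF4 and CHOP branch, 9 were called lower and 5 higher. Stc2, a secreted glycoprotein, fell 5.55-fold and Rgs2, a regulator of G protein signalling, rose 6.81-fold.

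The lists of the ER had calls in both directions. Among 21 ER chaperones and folding enzymes 9 were called lower and 7 higher (median −0.11), or 10 and 6 with DESeq2, with Sdf2l1 2.27-fold lower and Fkbp14 2.45-fold higher. Of 20 genes of ER-associated degradation and translocation, 11 were called higher and 6 lower (median 0.18). Without replicate 1 of day 4, which enters only through the shared spread and scaling, these numbers were 8 and 8. Derl3 fell from 3.73 ± 0.363 to 0.705 ± 0.113 CPM and Herpud1 2.37-fold. Heat shock genes divided into 6 lower and 5 higher of 13, with Hspa1b 3.71-fold and Hspb1 1.79-fold lower and Hspa8 1.51-fold higher. The mitochondrial unfolded protein response had 5 of 8 lower and 3 higher, with Hspa9 2.51-fold lower and Hspd1 1.64-fold higher. Of 10 genes of the NRF2 response to oxidants, 8 were called higher and 1 lower (median 0.81). Nqo1 rose from 1.79 ± 0.0711 to 15.2 ± 0.810 CPM and Srxn1 3.56-fold, and Hmox1 fell 3.19-fold.

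**Figure D4:**
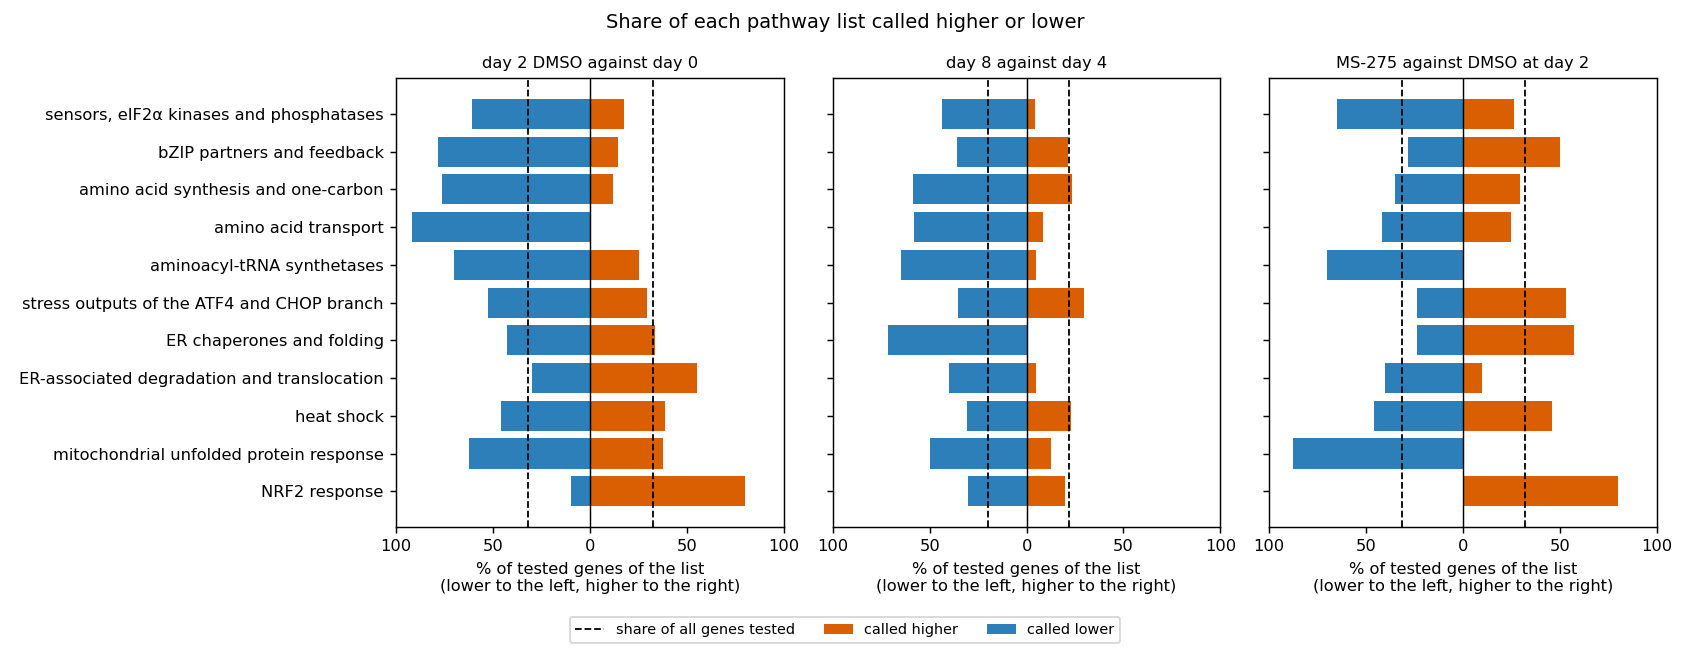
Share of the tested genes of each pathway list (y axis) called higher (orange, to the right) or lower (blue, to the left), in percent (x axis), in 3 comparisons, with dashed lines at the share of all genes tested. Amino acid transport reaches 91.7% lower at day 2 with DMSO against day 0, ER chaperones 71.4% lower at day 8 against day 4, and the NRF2 response 80.0% higher with MS-275.

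Values of day 4 against day 0 describe the contrast with which the set was chosen. Here 8 of the 10 genes, Trib3 included, were lower and 2 higher. By the test, 36.1% of all genes were called lower and 36.2% higher. Those shares are not on the same measure as the directions of the 10 genes, which carry no test here. The median log2 fold change over all genes was 0.007. Atf5 was 5.82-fold, Sesn2 3.34-fold, Chac1 2.95-fold, Asns 2.81-fold, Ddit3 2.79-fold, Atf4 2.11-fold and Psat1 1.65-fold lower. Xbp1 was 1.48-fold and Hspa5 2.18-fold higher. Without replicate 1 of day 4, Trib3 was 46.0-fold lower in place of 31.5-fold, and the directions of all 10 genes were as before. The median log2 fold change was −1.13 over 17 genes of amino acid synthesis, −0.90 over 20 aminoacyl-tRNA synthetases and −0.69 over the 8 genes of the mitochondrial unfolded protein response. Without that replicate these medians were −1.29, −1.03 and −0.73. With all libraries, the median was −1.35 for bZIP partners and feedback, −1.06 for amino acid transport and −0.71 for the NRF2 response. It was −0.24 for outputs of the ATF4 and CHOP branch, −0.23 for the sensors and phosphatases and −0.13 for heat shock. For ER-associated degradation and translocation it was −0.04, and for ER chaperones and folding 0.08.

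Between day 2 with DMSO and day 4 the levels went back up for most of the genes. This comparison was added after the values had been seen and has no test. The groups also differ in DMSO. Both day 4 libraries lay above both DMSO libraries for 9 of the 10 genes, beside 40.1% of all tested genes. Chac1 was at 3.61 and 3.64 CPM with DMSO and at 29.3 and 21.6 at day 4, 7.02-fold higher. Trib3 was 3.12-fold, Xbp1 2.35-fold, Atf5 2.01-fold, Sesn2 1.78-fold, Ddit3 1.74-fold and Atf4 1.63-fold higher. Hspa5 differed by 1.16-fold and Psat1 by 1.14-fold. Without replicate 1 of day 4 the folds were 5.99 for Chac1, 2.22 for Trib3, 2.18 for Xbp1 and 1.66 for Atf5, and that of Psat1 was 1.02. For Asns the day 4 libraries, at 133 and 91.7 CPM, lay on either side of the DMSO libraries, at 104 and 102, and without replicate 1 the level was 1.12-fold lower than with DMSO. Xbp1 and Hspa5 had their highest means of all groups at day 4. For Xbp1 these were 76.6 and 65.2 CPM, and for Hspa5 497 and 454.

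The comparison of day 8 against day 4 sets the cells labelled neurons against those labelled neural stem and progenitor cells. The marker sums above did not separate the groups in this way, since both the progenitor and the neuron sum were higher at day 8. All 9 genes other than Trib3 were called lower, where 19.8% of all genes were called lower and 21.7% higher. The folds were modest except for Chac1. It went from 29.3 and 21.6 CPM to 8.11 and 7.68 (3.22-fold lower, log2 −1.69, SE 0.141, edgeR adjusted p = 5.66e-08). Sesn2 went from 74.5 and 50.5 CPM to 35.1 and 34.8 (1.79-fold lower, adjusted p = 4.30e-05), libraries that overlapped with those of DMSO at day 2. Among the factors, Atf5 went from 52.7 and 36.7 to 30.4 and 23.7 CPM (1.65-fold lower, adjusted p = 0.000354) and Atf4 from 208 and 197 to 156 and 153 (1.31-fold lower, adjusted p = 3.27e-05). Asns, at 71.2 and 65.8 CPM, reached its lowest level at day 8 (1.64-fold lower than at day 4, adjusted p = 7.16e-05). Psat1 fell 1.25-fold to 276 and 270.0 CPM (adjusted p = 0.00140), and Hspa5 1.26-fold to 369.8 and 382 CPM (adjusted p = 7.48e-05).

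The calls of Ddit3 and Xbp1 were lost without replicate 1 of day 4. Ddit3 was at 15.0 and 14.04 CPM at day 8 (1.39-fold lower, edgeR adjusted p = 0.0342) and Xbp1 at 58.2 and 56.8 (1.23-fold lower, adjusted p = 0.00882). Without that replicate their adjusted p-values were 0.406 and 0.146, while the other 7 tested genes stayed called. Ddit3 was also not called without replicate 1 of day 8 (0.0731), without replicate 2 of day 8 (0.135) or with library totals (0.0565). The log2 fold change of Trib3 was −1.37 without replicate 1 of day 4, in place of −1.86, and −2.23 without replicate 2 of day 4. That of Ddit3 was −0.71 without replicate 2 of day 4. With 2 libraries, the data do not show which of them is the unusual one.

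Of the 175 listed genes, 85 were called lower and 22 higher at day 8. The ER chaperones had 15 of 21 called lower and 0 higher (median log2 −0.32), and 11 lower and 0 higher without replicate 1 of day 4. The oxidase Ero1l went from 84.7 ± 1.59 to 43.0 ± 0.932 CPM and the chaperone Hsp90b1 from 433 ± 11.1 to 286 ± 19.4. Of the aminoacyl-tRNA synthetases 13 were called lower and 1 higher (8 and 0 without that replicate), with Iars 1.51-fold and Lars 1.48-fold lower and Farsb 1.15-fold higher. The transporters had 7 of 12 lower and 1 higher with or without it. The cystine transporter Slc7a11 fell 3.25-fold and Slc7a3 2.67-fold, and Slc1a5 rose 1.21-fold. In amino acid synthesis 10 genes were called lower and 4 higher (7 and 4 without it). There Cbs, the enzyme that makes cystathionine, rose from 2.72 ± 0.235 to 36.0 ± 0.669 CPM and the proline enzyme Pycr1 fell 2.16-fold.

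Of the sensors and phosphatases 10 of 23 were called lower and 1 higher at day 8, with Ppp1r15a 1.76-fold lower and Impact, an inhibitor of the kinase GCN2, 1.63-fold higher. Of the bZIP and feedback list 5 were called lower and 3 higher. Ddit4, which restrains mTORC1, went from 179 ± 2.58 to 46.9 ± 1.81 CPM, Atf3 fell 3.62-fold, and Cebpa rose from 0.789 ± 0.299 to 2.46 ± 0.413 CPM. Among outputs of the ATF4 and CHOP branch 6 were called lower and 5 higher (6 and 2 without replicate 1 of day 4). Stc2 fell 3.81-fold and the angiogenic factor Vegfa 3.76-fold, and Rgs2 rose 2.01-fold. ER-associated degradation had 8 of 20 lower and 1 higher (6 and 1 without it), with Herpud1 1.61-fold and Selenos 1.56-fold lower and Ube2j1 1.20-fold higher. Heat shock genes had 4 lower and 3 higher of 13 (4 and 2 without it), with Hspa1b 3.17-fold and Hspb1 2.15-fold lower and Hsph1 1.24-fold higher. The mitochondrial list had 4 of 8 lower and 1 higher (Trap1 1.26-fold and Yme1l1 1.19-fold lower, Hspd1 1.18-fold higher). The NRF2 list had 3 of 10 lower and 2 higher (3 and 0 without replicate 1 of day 4), with Hmox1 1.93-fold lower and Gclm 1.39-fold higher.

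MS-275 against DMSO at day 2 asks what inhibition of class I histone deacetylases does to RNA levels, and neither of its groups entered the contrast on which the genes were selected. The 10 genes did not move as a block: 3 were called higher, 4 lower and 3 were not called. Over all genes 31.4% were called lower and 31.9% higher. This comparison depends on scaling more than the others. With library totals in place of TMM factors, the median log2 fold change of all genes was 0.14 in place of 0.01 and the share of calls that were higher was 61.2% in place of 50.4%.

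Trib3 and Sesn2 rose most. Trib3 was at 6.88 and 8.11 CPM with MS-275 against 2.62 and 2.62 with DMSO, 2.86-fold higher (log2 1.52, SE 0.246, edgeR adjusted p = 4.80e-05). Its level with MS-275 remained far below the 263 and 253 CPM of day 0. Sesn2 was at 106 and 94.1 CPM against 34.1 and 36.1, 2.85-fold higher (log2 1.51, SE 0.123, adjusted p = 1.88e-08). With MS-275 it lay above both day 4 libraries. Xbp1 was at 46.7 and 41.0 CPM against 30.8 and 29.5, 1.45-fold higher (log2 0.54, SE 0.0917, adjusted p = 7.49e-05), and the MS-275 libraries overlapped with those of day 0. The calls of Trib3, Sesn2 and Xbp1 held under every alternative that was run.

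The genes called lower were Chac1, Atf5, Atf4 and Psat1. Chac1 was at 2.23 and 1.44 CPM against 3.61 and 3.64, 1.97-fold lower (log2 −0.98, SE 0.247, edgeR adjusted p = 0.00248). Atf4 was at 90.5 and 100.2 CPM against 121 and 127, 1.30-fold lower (log2 −0.38, SE 0.0587, adjusted p = 2.94e-05). In Chac1 and Atf4 the call held under every alternative run. Atf5 was at 16.0 and 16.8 CPM against 23.1 and 21.4, 1.36-fold lower (log2 −0.44, SE 0.152, adjusted p = 0.0188). It was not called by DESeq2 (adjusted p = 0.0829), with library totals (0.0955), without replicate 1 of DMSO (0.109) or without replicate 1 of MS-275 (0.0784). Psat1 was at 258 and 256 CPM against 300.5 and 299.9, 1.17-fold lower (adjusted p = 0.0118). It was not called with library totals (adjusted p = 0.316) or without replicate 1 of DMSO (0.05003).

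Ddit3, Asns and Hspa5 were not called. Ddit3 was at 6.54 and 11.2 CPM with MS-275 against 11.9 and 11.4 with DMSO (log2 −0.39, SE 0.194, edgeR adjusted p = 0.0902). Its MS-275 libraries differed from each other more than the DMSO libraries did: without replicate 2 the log2 fold change was −0.84 (adjusted p = 0.00122), and without replicate 1 it was −0.05 (adjusted p = 0.817). With no filter on low counts Ddit3 was called (adjusted p = 0.00618). Asns was at 100.4 and 99.4 CPM against 104 and 102 (adjusted p = 0.737), and its sign turned with library totals (log2 0.09 in place of −0.05). Hspa5 was at 423 and 413 CPM against 395 and 422 (adjusted p = 0.594), and was called higher with library totals (log2 0.17, adjusted p = 0.0117). So Trib3, Sesn2 and Xbp1 were higher with MS-275 while Atf4 was lower, in the same libraries.

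Of the 175 listed genes, 74 were called lower and 58 higher with MS-275. The NRF2 response had 8 of 10 called higher and 0 lower (9 and 0 with library totals). Srxn1, which repairs oxidized peroxiredoxins, rose from 44.2 ± 0.111 to 313 ± 54.2 CPM and Gclc, of glutathione synthesis, 2.07-fold. The aminoacyl-tRNA synthetases had 14 of 20 called lower and 0 higher (14 and 1 with library totals), with Iars 2.06-fold and Farsa 1.64-fold lower. The mitochondrial unfolded protein response had 7 of 8 lower and 0 higher (5 and 0 with library totals), with Hspd1 1.86-fold and Clpp 1.60-fold lower. The ER chaperones had 12 of 21 higher and 5 lower (12 and 4 with library totals), with Sdf2l1 2.04-fold and Ero1lb 1.98-fold higher and Txndc5 1.45-fold lower. ER-associated degradation had 8 of 20 lower and 2 higher, but 8 lower and 7 higher with library totals, where its median changed sign from −0.10 to 0.04. Selenos fell 2.10-fold and Edem2 rose 1.38-fold.

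The sensor list had 15 of 23 lower and 6 higher with MS-275 (11 and 7 with library totals). Atf6b fell 1.93-fold and the protease Mbtps2, which cuts ATF6, 1.62-fold, and Ern1, which encodes IRE1, rose 1.51-fold. Among bZIP partners 7 were higher and 4 lower (8 and 2 with library totals). Nupr1 was at 0.943 ± 0.0736 CPM against 0.0808 ± 0.0338, Cebpb at 7.86 ± 6.21 against 0.815 ± 0.107, and Trib1 fell 2.40-fold. Outputs of the ATF4 and CHOP branch had 9 of 17 higher and 4 lower (10 and 3). Gadd45b, a growth arrest gene, was at 13.3 ± 6.75 CPM against 6.12 ± 1.48, Rgs2 fell 2.77-fold, and Stc2 was at 10.3 ± 5.41 against 26.5 ± 3.63. Amino acid synthesis had 6 of 17 lower and 5 higher (5 and 6 with library totals), with Cth 3.35-fold lower and Cbs 2.83-fold higher. The transporters had 5 of 12 lower and 3 higher (5 and 5), with the glycine transporter Slc6a9 3.42-fold and Slc38a1 2.17-fold lower and Slc1a5 2.17-fold higher. Medians of these amino acid lists were −0.07 and −0.07, and turned to 0.06 and 0.07 with library totals. Heat shock genes had 6 lower and 6 higher of 13 (median −0.01, but 0.12 with library totals). The small heat shock protein gene Hspb1 rose from 12.4 ± 0.858 to 156 ± 16.4 CPM and Hspa1b from 1.21 ± 0.585 to 9.80 ± 1.76, and Hsph1 fell 1.91-fold.

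The pattern of Trib3 over the 10 libraries was compared with that of 11501 genes with a mean of at least 5 CPM, by Pearson's r of log2(CPM + 1). The libraries fall into separate clusters, since the measure is governed by the gap between day 0 and the rest, so r ranks genes and describes no relation within groups. The 10 genes most like Trib3 were Nfe2l1 (r = 0.988), Mbnl2 (0.987), Slc7a3 (0.986), Chd2 (0.984), Aldh18a1 (0.984), Slc3a2 (0.983), Acta2 (0.983), As3mt (0.982), Tnnt1 (0.979) and Pcx (0.978). Slc7a3 and Slc3a2, a heavy chain of amino acid transporters, and Aldh18a1, an enzyme of proline synthesis, belong to the lists above, as does Nfe2l1, a factor that raises proteasome genes. Slc3a2 stood at 334 CPM at day 0, 107 in DMSO, 117 under MS-275, 129.8 at day 4 and 82.5 at day 8. Of the other members Asns was closest (r = 0.964, place 25), followed by Atf5 (0.923), Sesn2 (0.922), Psat1 (0.922), Ddit3 (0.871), Atf4 (0.845) and Chac1 (0.780). Xbp1 had r = 0.107 and Hspa5 r = −0.856.

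Peaks within 1 kb of either end of a gene were read from the 14 lists, each called on 1 library. All 10 genes had such a peak in 13 of the lists. For H3K9ac, among 15968 tested genes with coordinates, the share with a peak was 81.6% with DMSO and 88.3% with MS-275 at day 2, and 84.5% and 84.4% in the day 4 replicates. For H3K9cr it was 81.5% and 87.4% at day 2 and 82.9% and 82.9% at day 4. For H3K18la it was 71.1% with DMSO, and 73.4% and 74.2% at day 4, and for ATAC it was 71.8% and 69.0%. The exception was H3K18la with MS-275, where 5 of the 10 genes had a peak (Trib3, Ddit3, Atf4, Asns and Sesn2) beside 30.4% of all genes. That list held 31577 peaks against 36382 with DMSO, from 1 library each, so a condition and a library cannot be told apart.

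Genes low in RNA also had peaks at their starts. At Trib3 with DMSO at day 2, where the RNA was at 2.62 CPM, the H3K9ac peak at the start (chromosome 2, 152343335 to 152344810) had a fold enrichment of 39.0 in the authors' values, at the 75.0th percentile of its list, with its summit 123 bases into the gene. The H3K9cr peak had 45.7 (76.9th percentile) and the H3K18la peak 11.1 (92.3rd percentile). At Chac1 the H3K9ac peak had 21.2 (59.4th percentile). Atf5, at 22.2 CPM, had the H3K9ac peak with the highest fold enrichment of the 10 genes, 132.7 at the 99.3rd percentile. Nup62 and Il4i1b overlap Atf5 in RefSeq, so its peaks here and below cannot be assigned to Atf5 alone. The same holds for the peaks of Ddit3 and Hspa5, which also overlap other genes. The H3K18la peak of Sesn2, with 3.52, stood at the 11.4th percentile of its list. Fold enrichments are each list's own values, since the lists differ in their number of peaks and their scaling was not stated.

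At day 4 Trib3 stood higher within the replicate 1 lists than within the replicate 2 lists of the 3 marks, with no test and with values that are not on a shared scale. Its H3K9ac peak at the start had a fold enrichment of 69.5 (88.9th percentile) in replicate 1 and 33.7 (72.9th) in replicate 2. For H3K9cr the values were 65.7 (86.3rd) and 27.7 (63.1st), and for H3K18la 8.59 (91.2nd) and 4.39 (54.7th). The labels do not say whether ChIP and RNA libraries with the same number came from the same culture. Atf4 stood at the 98.2nd and 98.3rd percentiles for H3K9ac, and Hspa5 at the 95.7th and 98.2nd. Open chromatin by ATAC at Trib3 had a fold enrichment of 7.13 (57.0th percentile) and 6.59 (46.8th), and at Hspa5 11.0 (90.7th) and 10.7 (88.8th). At −log10 q of 10 or more, 9 and 6 of the 10 genes kept an ATAC peak in replicates 1 and 2, beside 51.0% and 43.6% of all genes.

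With MS-275 the H3K9ac and H3K9cr peaks of some of the genes were much wider. The widest H3K9ac peak at Sesn2 spanned 12938 bases with MS-275 and 1832 with DMSO, a ratio of 7.06. At Trib3 it spanned 6764 bases and 1476 bases, a ratio of 4.58. Both moved up within their lists by width, Sesn2 from the 76.6th to the 99.8th percentile and Trib3 from the 65.1st to the 98.2nd. Over 12967 genes with a peak in both lists the median ratio was 1.59, with the 5th and 95th percentiles at 0.758 and 5.16, so a wider peak was common. The ratio was 1.62 at Atf4, 2.51 at Atf5, 2.00 at Xbp1, 1.32 at Asns, 1.13 at Psat1 and 1.06 at Chac1, and below 1 at Hspa5 (0.808) and Ddit3 (0.446). At Hspa5 and Ddit3 the MS-275 list held 2 neighbouring peaks at the start where the DMSO list held 1. They spanned 1397 and 2138 bases at Hspa5, and 1335 and 2547 at Ddit3. The ratio takes only the widest peak. At Hspa5 the DMSO peak spanned 2647 bases, less than the 2 MS-275 peaks together, so the value below 1 does not show a narrower marked region. At Ddit3 the DMSO peak spanned 5705 bases, more than the 2 MS-275 peaks together, so the split into 2 peaks does not account for that value. For H3K9cr the ratio was 3.89 at Trib3 and 3.84 at Sesn2, beside a median of 1.59 over 12906 genes. Trib3, Sesn2 and Xbp1, whose RNA rose with MS-275, all lay above the median ratio in both marks, but so did Atf4 and Atf5, whose RNA was lower.

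**Figure D5:**
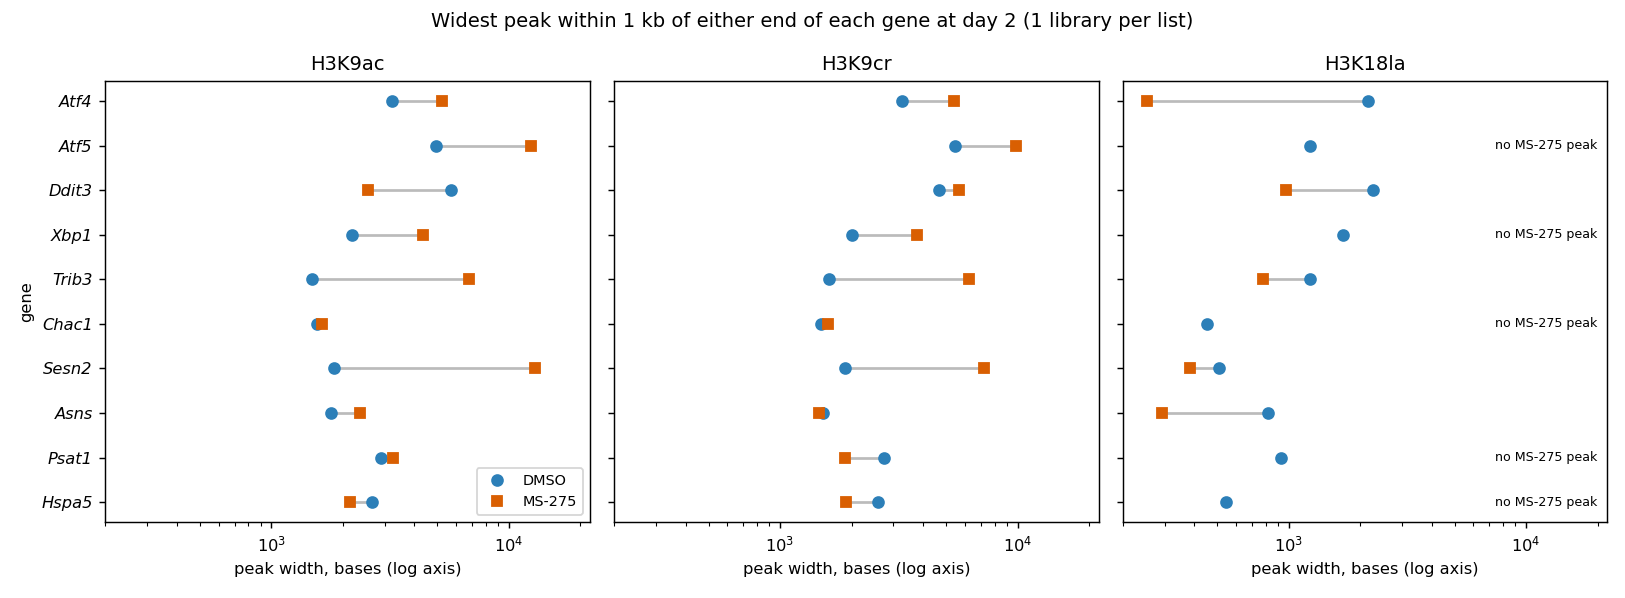
Width in bases (x axis, log scale) of the widest peak within 1 kb of either end of each gene (y axis) at day 2, for DMSO (blue circles) and MS-275 (orange squares), with 1 library per list and a panel per mark. The widest spans are those of Sesn2 (12938 bases) and Atf5 (12428 bases) for H3K9ac with MS-275, and 5 genes have no H3K18la peak with MS-275.

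The widest H3K18la peak was narrower with MS-275 in all 5 genes that kept one. The ratio of widths was 0.751 at Sesn2, 0.640 at Trib3, 0.434 at Ddit3, 0.360 at Asns and 0.117 at Atf4. The median over 4415 genes with a peak in both lists was 0.440. At −log10 q of 10 or more, 1 of the 10 genes kept a peak, beside 3.12% of all genes. These widths come from 1 library per condition and have no replicate check.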

How the data were processed

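RNA-seq of 10 libraries and 14 peak lists were used. The 4 input libraries were not analysed here. The authors deposited estimated counts per gene, and the submitters' processing notes name Salmon 1.1.0. The gene summary, annotation release and use of strand are not stated in them. Counts were rounded, since 19.2% to 25.8% of values per library had decimals. Each deposited peak list, per the file headers, has the columns of a MACS2 table: position, width, pileup signal at the summit, −log10 p-value and −log10 q-value, and fold enrichment, a ratio over local background. Versions in the notes are 2.2.7.1 for MACS2 and 2.4.1 for Bowtie2, with GRCm38 as the build. Caller settings and the control are not stated. The authors' lists give no read depth, which is unknown here.

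Symbols were matched for 55144 of 55385 identifiers. Genes were tested with edgeR 4.0.16 (R 4.3.3): after filterByExpr 17789 genes remained, and 1 quasi-likelihood model of all 10 libraries shared the spread between 5 groups with 5 residual degrees of freedom. Adjusted p-values are Benjamini-Hochberg over all tested genes. Standard errors come from the fold change and the F statistic. The p-values measure the spread between these libraries, which may be partly technical. The test was checked on simulated data. DESeq2 1.42.0, other scalings, filters, sample subsets and peak windows were alternatives.

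Members and lists were chosen with earlier results of these data known. Named were all 10 members, and from each other list and comparison the 2 called genes that changed most, given 1 CPM or more on average, plus the largest called change the other way. For day 4 against day 0 only list medians are given. A gene that the rule would name is not reported here. Also named were the 10 genes most correlated with Trib3 at a mean of at least 5 CPM, without predicted genes and pseudogenes. Replicate numbers did not pair the libraries: deviations of same-numbered libraries correlated by −0.0747 to 0.0859 between groups. Gene coordinates and promoters are RefSeq, GRCm38.p6, and peak coordinates are the authors', on GRCm38. The comparison of day 4 with day 2, list counts under other settings and peak widths were added after seeing the data.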

Additional observations from a re-analysis of the deposited data

How the results depend on the processing

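Counts below include Trib3, whose calls outside MS-275 against DMSO are not read as tests. Over 36 recounts of all genes called, each stayed within 1.5 times its main value. Leaving out a library gave 10220 to 10406 calls for day 2 with DMSO against day 0, 11934 to 12043 for day 4 against day 0, 5872 to 6671 for day 8 against day 4 and 9890 to 10171 for MS-275 against DMSO. With the replicate block the calls were 11417, 12801, 7312 and 11182 against 11489, 12866, 7387 and 11256 without it, and it changed no call of a member. Members called lower with MS-275 numbered 4, but 2 with library totals, and 2 to 5 when a library was left out, where it was 2 without replicate 1 of DMSO (Atf5 and Psat1 lost). At day 8, 8 to 10 members were called lower. Of 252 recomputed log2 fold changes of members in the comparisons that carry a test, 236 kept direction and side of the threshold, 11 were no longer called, 3 became called, and 2 changed sign without being called: Asns with MS-275 under library totals (0.0915) and Hspa5 with MS-275 without replicate 1 of DMSO (−0.0175, in a range of −0.0175 to 0.0757 over the libraries left out). At −log10 q of 10 or more, 1 member had an H3K18la peak with MS-275 (3.12% of all genes did) and 6 had an ATAC peak in replicate 2 (43.6%). The cause of these differences was not tested. With 2 libraries a group, a lone library left in a group is assumed to vary like the others. Trib3 rested on 35 and 51 counts at day 8, and Chac1 on 45 and 29 with MS-275.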
